A study of Mus musculus with 24 samples.

Results

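Macrophages labelled M2, sorted from the epididymal fat of obese mice, were compared between cold-exposed and warm-housed animals across all genes. The comparison rests on 6 of the 24 RNA sequencing libraries of the series, 3 titled Cold M2 and 3 titled Warm M2, and these titles alone chose them. All mice were male C57BL/6J animals fed a high-fat diet from 6 weeks of age until they weighed 38 to 42 g at 18 to 20 weeks, and the diet continued throughout, so both groups were obese. Warm mice were kept at thermoneutrality, 29 to 30 °C, the range in which a mouse need not spend energy on heat. Cold mice were moved from thermoneutrality to 18 °C for 7 days and then to 4 °C for 7 days, and tissue was taken on day 14. Each library pooled cells sorted by flow cytometry from 5 mice, so the spread between the 3 libraries of a group is a spread between pools and not between animals. The labels do not give the sorting gates or the hour of harvest, nor do they say whether mice were shared between pools.

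Adipose tissue macrophages engulf dying fat cells, take up and store lipid, and buffer iron. In obese epididymal fat, cells rich in the mannose receptor Mrc1 are usually called M2 and are thought of as long-lived residents that clear debris, whereas cells carrying the integrin Itgax (CD11c) are usually called M1 and include many recent descendants of blood monocytes that enter through the chemokine receptor Ccr2. Cold exposure raises sympathetic nerve activity in fat and releases fatty acids from adipocytes, so macrophages there meet both catecholamines and lipid.

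The libraries held between 14374696 and 23397365 counts assigned to genes, and values are given below as CPM, the counts of a gene scaled to a common library size. Resident scavenger receptors were high in the libraries labelled M2. Mrc1 averaged 5760 ± 122 CPM (SD, n = 3) in Warm M2 against 1700 CPM in Warm M1, the hemoglobin scavenger receptor Cd163 averaged 2370 against 206 CPM, and the hyaluronan receptor Lyve1 averaged 799 against 8.31 CPM. Itgax averaged 105 ± 26.5 CPM in Warm M2 and 779 CPM in Warm M1. The core macrophage genes Emr1 (F4/80), Csf1r and Cd68 did not pass the test between Cold and Warm M2, with log2 changes of -0.07, 0.04 and 0.25. A fit of the 6 M2 libraries alone called Cd68 higher. Of 14 tested genes of the core macrophage list, 1 rose, Mertk (0.32), and none fell. Mertk kept its call in 1 of the 6 fits that each left out an M2 library. Markers of other cells were not equally present in both groups. The summed level of 9 mast cell markers was 2.21 to 3.78 CPM in Warm M2 and 14.3 to 23.7 CPM in Cold M2, and that of 12 mature adipocyte markers was 33 to 55.1 CPM and 79.9 to 105 CPM. Endothelial markers summed to 98.6 to 136 CPM in Warm M2 and 139 to 198 CPM in Cold M2, while adipose progenitor markers summed to 2390 to 4200 CPM and 1420 to 2260 CPM. Scaled on those progenitor markers, progenitor RNA was estimated at 1.99% to 3.5% of the Warm M2 libraries and 1.74% to 2.77% of the Cold M2 libraries. The 12 granulocyte and eosinophil markers summed to 76 to 84.8 CPM in Warm M2 and 86.1 to 88.1 CPM in Cold M2, and of them the neutrophil marker Ly6g and the eosinophil marker Epx were at 0 in all 6 libraries.

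Cold and Warm M2 libraries separated on the first principal component, which held 53.8% of the variance, with all Warm libraries on one side and all Cold libraries on the other. Of 12981 genes tested by edgeR's quasi-likelihood test across the 12 M2 and M1 libraries of both temperatures, 1312 (10.1%) passed a Benjamini-Hochberg adjusted p of 0.05. Cold raised 573 of them (4.41% of the genes tested) and lowered 739 (5.69%), with median log2 changes of 0.48 and -0.54, and the median over all tested genes was 0. A change of at least 2-fold was seen for 106 of the genes that rose (0.817%) and 175 of the genes that fell (1.35%). The CPM values of the groups did not overlap for 1302 of the 1312 called genes, against 40% of all tested genes (27.6% higher and 12.4% lower in Cold). Leaving out Warm M2 2 cut the number of called genes to 531, and leaving out Cold M2 2 cut it to 580; it was 820 without Warm M2 1, 813 without Cold M2 1 and 721 without Cold M2 3. A fit of the 6 M2 libraries alone called 2538 of 12190 genes (20.8%), 1231 higher (10.1%) and 1307 lower (10.7%). Below, a log2 change is followed by its standard error, and an adjusted p is always that of edgeR's quasi-likelihood test over all tested genes.

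**Figure D1:**
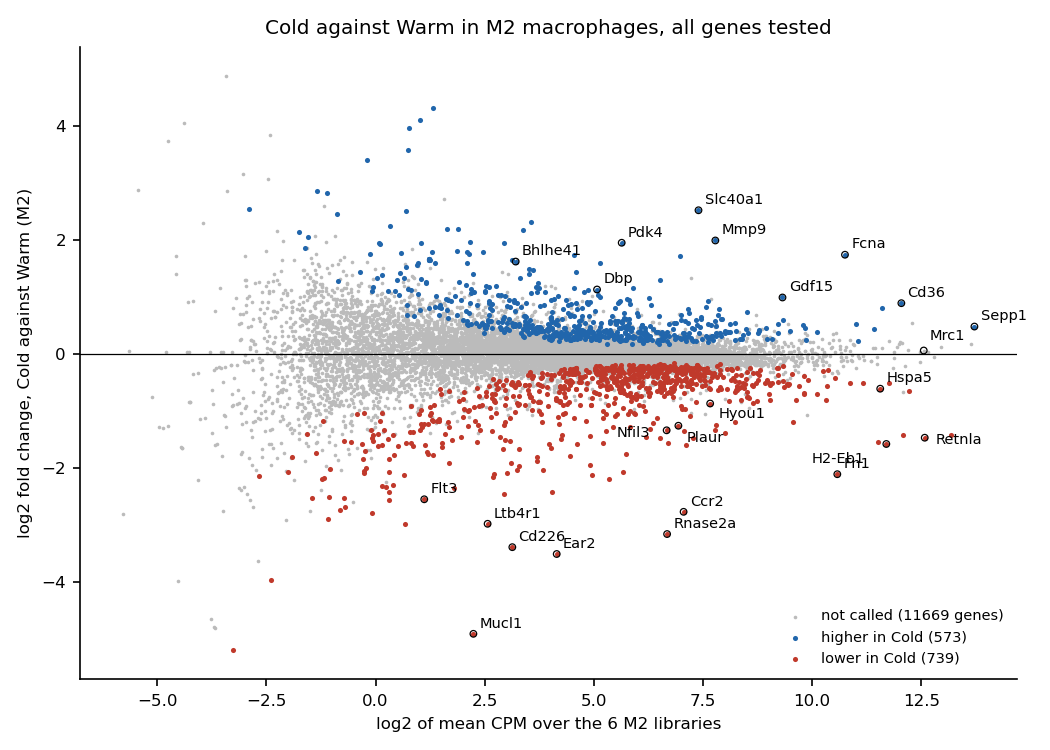
Each point is a gene: the x axis is its mean level over the 6 M2 libraries (log2 CPM) and the y axis its log2 change, Cold over Warm. Genes called higher in Cold are blue (573), genes called lower are red (739) and all others are grey; most named genes lie at the edges of the cloud, with Slc40a1 at 2.52 among the highest and Mucl1 at -4.91 the lowest.

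The plot of change against level shows that called genes spread over the whole range of expression. By the naming rule, the genes that rose or fell most were taken only from called genes whose Warm and Cold libraries did not overlap. Their separation was therefore set in advance and is not further evidence. The genes that rose most have varied roles. Slc40a1, which encodes ferroportin, the iron exporter of the cell surface (chr1:45908068-45926523, minus strand, GRCm38), was at 49.8, 38.4 and 56.3 CPM in the Warm libraries and at 275, 331 and 261 CPM in the Cold libraries. Its log2 change was 2.52 ± 0.21 (adjusted p = 0.000282). Pdk4, a kinase that holds back the entry of glucose carbon into mitochondria, rose from 25.4, 19.5 and 14.5 CPM to 73.3, 84.9 and 81.5 CPM (1.95 ± 0.16, adjusted p = 0.000282). Fcna, a secreted lectin that binds microbial sugars, stood at 909, 609 and 787 CPM in Warm and 2473, 3043 and 2536 CPM in Cold (1.74 ± 0.17, adjusted p = 0.000467). The gelatinase Mmp9, the scavenger receptor Marco and the cytokine receptor Il21r rose as well. Mmp9 averaged 85.2 ± 25.9 CPM (SD, n = 3) in Warm and 356 ± 21.3 CPM in Cold, and Il21r averaged 17.1 ± 0.0947 and 53.8 ± 1.19 CPM. Marco ranged from 3 to 4.4 CPM in Warm and from 9.52 to 28 CPM in Cold, so its Cold libraries differed widely among themselves.

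Some of the genes that rose most are also known from other cells of fat. The gluconeogenic enzyme Pck1 (2.19 ± 0.40), the cytochrome Cyp2e1 (2.19 ± 0.33) and adipsin, Cfd (1.79 ± 0.34), are abundant in mature adipocytes, and their Cold means were 6.15, 5.16 and 8.59 CPM. In the list of adipocyte markers, which includes Cfd, 4 of the 10 tested rose, 1 (Lep) fell and the median log2 change was 0.94. Between 2 and 4 were called higher in the fits that each left out 1 M2 library, and Lep kept its call in 1 of those 6 fits. The methyltransferase gene Inmt (2.18) averaged 3.59 CPM in Warm M2 and 17.1 CPM in Cold M2. It averaged 525 and 1340 CPM in the Warm and Cold adipose progenitor libraries of the series. The progenitor RNA scaled above would hold more Inmt than these M2 means. Its share was therefore capped at 100%, and the scaling is too high for this gene. For Dpyd the largest share owed to progenitor RNA was 51.7%, in Warm M2 2. Of 7 tested mast cell markers 4 rose, the protease genes Cma1, Mcpt4, Tpsb2 and Cpa3, and the median was 3.84. The chymase genes Cma1 and Mcpt4, and the tryptase gene Tpsb2, each have close relatives among which counting can split reads. The part of these other cells in the changes of the M2 libraries was not tested. In pooled sorted cells, fewer cells of a kind and less RNA per cell cannot be told apart.

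The genes that fell most include genes known from monocytes and granulocytes and receptors for lipid mediators. Rnase2a, an eosinophil-type ribonuclease (chr14:51255262-51256112, minus strand), was at 184, 168 and 198 CPM in Warm and at 17.7, 25.2 and 21.9 CPM in Cold (-3.16 ± 0.18, adjusted p = 2.54e-05). Its relative Ear2 fell from a mean of 32.7 ± 4.83 to 2.79 ± 2.07 CPM (-3.51 ± 0.38), and reads of such closely related copies can be split between them by counting. The secreted mucin-like gene Mucl1 had the largest fall of the genes named by size, from 8.9, 8.23 and 10.2 CPM to 0.128, 0.417 and 0.463 CPM. Cd226, an activating receptor of lymphocytes and myeloid cells, was at 12.7 to 19.4 CPM in Warm and 1.26 to 1.95 CPM in Cold (-3.39 ± 0.32). Lyz1, a lysozyme gene, fell from 66 ± 9.11 to 15 ± 4.22 CPM (-2.19 ± 0.29), whereas its neighbor Lyz2, the lysozyme of all macrophages, gave 0.13 ± 0.14 and did not pass (adjusted p = 0.611).

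Gene lists of function were then read against the background of 4.41% called higher and 5.69% called lower. The bars of called members by list show lists on both sides. On the lower side stood class II antigen presentation, endoplasmic reticulum (ER) chaperones, monocyte genes and genes that respond to cyclic AMP. On the higher side stood fatty acid oxidation, glutathione and thioredoxin enzymes, lipid-associated macrophage genes and scavenger receptors.

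**Figure D2:**
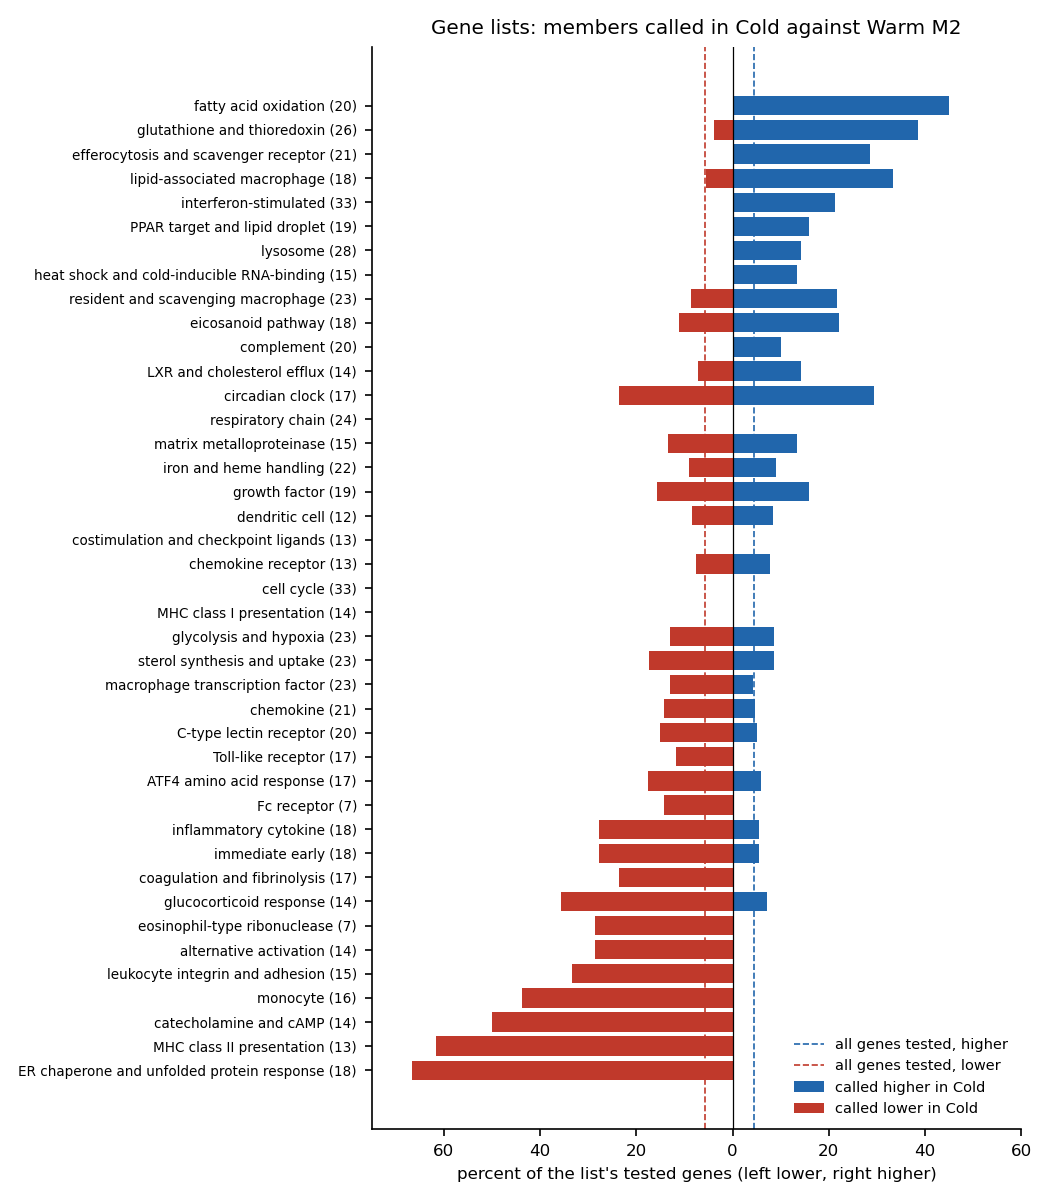
Percent of each list's tested members that were called higher in Cold (bars to the right) or lower in Cold (bars to the left). Dashed lines mark the shares over all tested genes, 4.41% higher and 5.69% lower; class II presentation and ER chaperones extend farthest to the left, with 8 of 13 and 12 of 18 members.

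Genes of fatty acid oxidation and a few genes of lipid uptake and lysosomes rose in Cold. Of 20 tested genes of fatty acid oxidation, 9 rose and none fell (6 or 7 in each fit that left out 1 M2 library), with a median of 0.23. Cpt1a, which commits fatty acids to mitochondrial uptake, was at 312, 300 and 276 CPM in Warm and at 408, 427 and 430 CPM in Cold (0.44 ± 0.07, adjusted p = 0.00337), and the long-chain dehydrogenase Acadl rose from 129 ± 5.11 to 184 ± 3.01 CPM (0.44 ± 0.05, adjusted p = 0.000815). These were gains of well under 2-fold, yet the Cold values of both genes lay above all Warm values. The fatty acid translocase and scavenger receptor Cd36 was at 2788, 2723 and 3110 CPM in Warm and at 5766, 5865 and 5096 CPM in Cold (0.89 ± 0.10, adjusted p = 0.000814). The lipid droplet coat Plin2 gained 0.53 ± 0.09 and the lipoprotein lipase inhibitor Angptl4 gained 1.71 ± 0.29, and these 3 were the called members of 19 peroxisome proliferator-activated receptor (PPAR) targets, none of which fell. The fit of the M2 libraries alone called 5 of the 18 it tested. Up to 2 members were called lower in the fits that left out 1 M2 library. For Angptl4, the largest share owed to progenitor RNA by the scaling was 31.3%, in Warm M2 2, and the shares were lower in the Cold libraries. Angptl4 averaged 531 CPM in Warm and 356 CPM in Cold progenitor libraries.

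Of 18 genes known from lipid-associated macrophages, 6 rose and 1 fell, with a median of 0.40. The aspartic protease Ctsd rose from 2190 ± 42.2 to 4000 ± 448 CPM (0.80 ± 0.10, adjusted p = 0.00082), and the collagen-degrading Ctsk from 35.7 ± 1.23 to 73.1 ± 15.5 CPM. The largest share of Ctsk counts owed to progenitor RNA by the scaling was 71.9%, in Warm M2 2, and the shares were lower in the Cold libraries. Ctsk averaged 727 CPM in Warm and 534 CPM in Cold progenitor libraries, and the part of progenitor RNA in its rise was not tested. The lipid receptor Trem2 and the glycoprotein Gpnmb, defining genes of that state, did not pass (0.39 ± 0.15, adjusted p = 0.132, and 0.44 ± 0.19, adjusted p = 0.16), and the member that fell was Itgax. Among 28 lysosomal genes 4 rose and none fell; the count was 8 in the fit of M2 libraries alone and 1 to 3 when a library was left out. None of 24 genes of the respiratory chain passed edgeR's test in the fit of 12 libraries or in that of the 6 M2 libraries, 0 had an unadjusted p under 0.05 and DESeq2 called 0.

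Scavenging genes of resident macrophages moved unevenly. Of 23 tested, 5 rose (Vsig4, Fcna, Marco, Sepp1 and Timd4), 2 fell (Ccl8 and Igf1) and Mrc1, Cd163 and Lyve1 did not pass (0.06, -0.11 and 0.24). Vsig4, a complement receptor of resident macrophages, was at 37.6, 35 and 34.5 CPM in Warm and at 77.6, 89 and 82.2 CPM in Cold (1.15 ± 0.10, adjusted p = 0.000282). Sepp1, which encodes the secreted selenium carrier, averaged 10900 ± 1150 CPM in Warm and 16000 ± 565 CPM in Cold (0.48 ± 0.10, adjusted p = 0.0164), but lost its call without Warm M2 1, Warm M2 2, Cold M2 2 or Cold M2 3, where the adjusted p reached 0.0803, and its exons overlap Ccdc152 on the opposite strand. The growth factor gene Igf1 went from 246, 261 and 279 CPM to 216, 218 and 210 CPM (-0.35 ± 0.08, adjusted p = 0.0235), with an adjusted p of up to 0.0788 when any library but Warm M2 1 was left out. The list had 3 members called higher without Warm M2 1, Warm M2 2, Cold M2 2 or Cold M2 3. Of 21 genes for engulfing dead cells, 6 rose and none fell, among them Cd36 and the apoptotic cell receptors Timd4 (0.88 ± 0.22) and Mertk (0.32 ± 0.08). That count was 2 without Warm M2 1, Warm M2 2 or Cold M2 2 and 3 without Cold M2 3, and Timd4 lost its call without any library but Warm M2 3 (adjusted p of up to 0.108) and Mertk without any but Cold M2 1 (up to 0.114).

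Most genes of class II antigen presentation fell. Of 13 tested members 8 fell and none rose, in the fit of all libraries and in every leave-one-out fit, and the list median was -1.38. H2-Eb1, a chain of the I-E molecule that shows peptides to helper T cells, was at 4261, 5322 and 5196 CPM in Warm and at 2150, 1486 and 1550 CPM in Cold (-1.58 ± 0.18, adjusted p = 0.000619). Ciita, the coactivator on which transcription of the class II genes depends, fell from 173, 222 and 181 CPM to 92.7, 66 and 75.5 CPM (-1.36 ± 0.15, adjusted p = 0.00063). The invariant chain Cd74 dropped from 13300 ± 1200 to 5170 ± 812 CPM (-1.43 ± 0.17), and the peptide loaders H2-DMa (-1.38 ± 0.16), H2-DMb1 (-1.48 ± 0.15) and H2-DMb2 (-2.35 ± 0.32) fell with them. The lowest Warm library exceeded the highest Cold library for each of these genes, which the naming rule required of H2-DMb2. The exons of Ciita overlap Dexi and those of H2-DMa overlap Brd2 on the opposite strand, and the library kit does not keep strand, so reads there cannot be told apart. Of 14 class I presentation genes none passed edgeR's test (2 had an unadjusted p under 0.05, and DESeq2 and the fit of M2 libraries alone called 1 each), and their median was -0.10. Whether the fall of class II genes exceeds that of class I genes was not tested.

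Class II promoters carry an X box bound by regulatory factor X and an inverted CCAAT box (Y box) bound by NF-Y. Windows of the RefSeq promoters (GRCm38.p6) of 2 fallen genes show both elements close together, with the fixed letters of the X box pattern in capitals and the inverted CCAAT letters attgg downstream of it in lower case.
H2-Eb1, chr17:34305752-34305841, plus strand: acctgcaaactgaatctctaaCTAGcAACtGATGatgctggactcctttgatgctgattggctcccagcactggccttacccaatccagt
H2-DMb1, chr17:34153076-34153165, plus strand: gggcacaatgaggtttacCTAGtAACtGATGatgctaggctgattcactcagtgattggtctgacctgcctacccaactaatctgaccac
The pattern CTAG, any base, AAC, any base and GATG, whose letters were set with these sequences in view, was found in 2 of the 10 class II promoters available on either strand and in 0.037% of all 27025 mouse promoters of the same length (300 bases, from 250 before to 50 after the start). The shorter ATTGG was found in 8 of those 10 (80%), against 41.1% of all promoters. These matches describe letters in the windows and not binding.

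Several genes known from monocytes fell as well. Of 16 tested, 7 fell and none rose (median -0.92), and the fit of M2 libraries alone called 11. Ccr2, the receptor by which monocytes enter inflamed tissue, was at 193, 295 and 205 CPM in Warm and at 48.7, 29.6 and 27.3 CPM in Cold (-2.77 ± 0.27, adjusted p = 0.000457). Flt3, the receptor tyrosine kinase of dendritic cells and their precursors, fell from 4.5, 3.47 and 3.11 CPM to 0.769, 0.696 and 0.463 CPM (-2.55 ± 0.34, adjusted p = 0.00163). Every Cold library was below every Warm library for both genes, at low levels for Flt3, and the naming rule required this of Ccr2. Of 12 tested dendritic cell genes, Flt3 was the 1 that fell, and the transcription factor gene Zbtb46 rose from 8.25 ± 1.12 to 13.6 ± 1.6 CPM (0.65 ± 0.13, adjusted p = 0.0125), with an adjusted p of 0.0514 without Warm M2 2. Itgax, at 125, 75.2 and 116 CPM in Warm and 49.8, 34 and 36.3 CPM in Cold (-1.46 ± 0.20, adjusted p = 0.00163), was 1 of 5 integrin and adhesion genes of 15 that fell. The hyaluronan receptor Cd44 was another, whereas the collagen- and fibronectin-binding integrin chain Itgb1 did not pass (-0.07 ± 0.06). Only 2 or 3 of the 15 were called when a library was left out, and 8 in the fit of M2 libraries alone. Fn1, which encodes fibronectin, fell from 2460 ± 448 to 595 ± 66 CPM (-2.11 ± 0.18). Up to 45% of its M2 counts were owed to progenitor RNA by the scaling, in Cold M2 3, and the shares were lower in the Warm libraries.

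A few genes of coagulation and of plasminogen activation fell in Cold. Of 17 tested, 4 fell and none rose in the fit of 12 libraries and in every leave-one-out fit (median -0.37), while the fit of M2 libraries alone called 7 lower and 4 higher. The 4 were the clotting factor genes F10 (from 10.7 ± 0.762 to 2.52 ± 0.894 CPM) and F7 (from 14.8 ± 2.85 to 4.71 ± 2.40 CPM), the plasminogen activator inhibitor Serpinb2, and Plaur, the urokinase receptor. Plaur stood at 165, 183 and 164 CPM in Warm and at 88, 66.1 and 69.3 CPM in Cold (-1.26 ± 0.17, adjusted p = 0.0015). F13a1, a transglutaminase that cross-links fibrin and is abundant in resident macrophages, gave 0.07 ± 0.19 (adjusted p = 0.848), with overlapping groups. Of 15 matrix metalloproteinase genes, 2 rose, Mmp9 and Mmp27, and 2 fell, Mmp19 from 198 ± 21.3 to 97.2 ± 14.2 CPM (-1.09 ± 0.12) and Mmp13 (-1.04 ± 0.22). The call for Mmp13 was lost without Warm M2 2, Cold M2 2 or Cold M2 3, with an adjusted p of up to 0.0684.

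Genes of alternative activation and of inflammation both fell in part. Of 14 genes that interleukin-4 is known to induce or use, 4 fell and none rose (median -0.35), and 3 were called lower in every leave-one-out fit. Retnla, a secreted protein of interleukin-4-stimulated macrophages, was at 9110, 7862 and 9695 CPM in Warm and at 2886, 3406 and 3775 CPM in Cold (-1.47 ± 0.23, adjusted p = 0.00318). The interleukin-4 receptor chain Il4ra and the transcription factor Batf3 fell as well, while Arg1 (-0.36 ± 0.35, adjusted p = 0.569) and Clec10a (0.23 ± 0.17, adjusted p = 0.452) did not pass. The lectin gene Mgl2 was the other member that fell (-1.19 ± 0.29, adjusted p = 0.0282). It lost its call whichever M2 library was left out (adjusted p of up to 0.0899). Among 18 inflammatory cytokine genes 5 fell and 1, Lif, rose. Lif lost its call without any library but Warm M2 1 (adjusted p of up to 0.125). Il6 fell from 60.6 ± 9.28 to 26.3 ± 2.79 CPM (-1.28 ± 0.24, adjusted p = 0.00922) and kept its call in every leave-one-out fit. Up to 44.3% of its M2 counts, in Cold M2 2, could be owed to progenitor RNA. Il1b was at 381, 492 and 361 CPM in Warm and at 247, 146 and 172 CPM in Cold (-1.19 ± 0.27, adjusted p = 0.0207), and the anti-inflammatory Il10 fell alongside it, from 204 ± 44 to 119 ± 15.6 CPM (-0.84 ± 0.18, adjusted p = 0.0153). The groups did not overlap for either gene, but both calls were lost without Warm M2 2, Cold M2 2 or Cold M2 3, where the adjusted p reached 0.0853 for Il1b and 0.0709 for Il10. Tumor necrosis factor, Tnf, gave -0.08 ± 0.17 (adjusted p = 0.825). The number of cytokine genes called lower was 1 without Warm M2 2 or Cold M2 2, 2 without Cold M2 3, and 10 in the fit of M2 libraries alone.

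The circadian clock list was the most evenly divided of those with many calls. The clock of a cell is a feedback loop in which Clock and Arntl (BMAL1) activate genes through E boxes, Per and Cry proteins and the Bhlhe repressors oppose them, and Nr1d proteins and the Dbp and Nfil3 factors form further arms. Of 17 tested members 5 rose and 4 fell (median 0.32). Bhlhe41 (DEC2), a repressor that binds E boxes, was at 4.25, 4.61 and 4.3 CPM in Warm and at 15.1, 14.4 and 12.9 CPM in Cold (1.62, adjusted p = 0.000351). Its relative Bhlhe40 (DEC1) moved the other way, from 64.6, 64.2 and 52.1 CPM to 31.6, 30.1 and 27.3 CPM (-1.09, adjusted p = 0.000467). Up to 44.1% of the M2 counts of Bhlhe40 were owed to progenitor RNA by the scaling, in Cold M2 2, and the shares were lower in the Warm libraries. Dbp, an activator that binds D boxes, rose from 22.1, 20.1 and 19.3 CPM to 38.9, 47.2 and 54.6 CPM (1.13, adjusted p = 0.000859). Nfil3, a repressor at the same D boxes, fell from 146, 155 and 131 CPM to 74.1, 54.4 and 50.1 CPM (-1.34, adjusted p = 0.000534). No Warm library overlapped a Cold library for any of these 4 genes, which the naming rule required of Bhlhe41. All 4 calls held whichever library was left out, as did the fall of Per1.

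Per1, a repressor of the clock that also responds to cyclic AMP and glucocorticoids, was at 834, 764 and 702 CPM in Warm and at 548, 493 and 570 CPM in Cold (-0.58, adjusted p = 0.00232). Per2 fell from 21.4, 16.5 and 17.7 CPM to 9.75, 11.5 and 14.4 CPM (-0.71, adjusted p = 0.0293). Nr1d1 (REV-ERBα), a heme-binding repressor of Arntl, rose from 153, 120 and 124 CPM to 194, 263 and 280 CPM (0.83, adjusted p = 0.013), and its relative Nr1d2 and the repressor Ciart rose by 0.41 and 0.64. These 4 calls were less steady. The call for Nr1d1 was lost without Cold M2 2, Warm M2 2 or Warm M2 3 (adjusted p of up to 0.0635), that for Per2 without any library but Cold M2 3 (up to 0.11), that for Nr1d2 without any but Cold M2 1 (up to 0.0922) and that for Ciart without any 1 of the 6 (up to 0.138). The list had 2 members called higher without Cold M2 2, Warm M2 2 or Warm M2 3, and 3 without Cold M2 3 or Warm M2 1. The core activators did not pass, Arntl at 0.21 (adjusted p = 0.231) and Clock at -0.07, nor did Cry1 at -0.08. Exons of Dbp overlap Sphk2 and those of Nr1d1 overlap Thra on the other strand, and neither partner passed (0 and 0.10). As the hour of harvest is not in the labels, a difference in time of day and a difference in clock gene level cannot be told apart here.

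**Figure D3:**
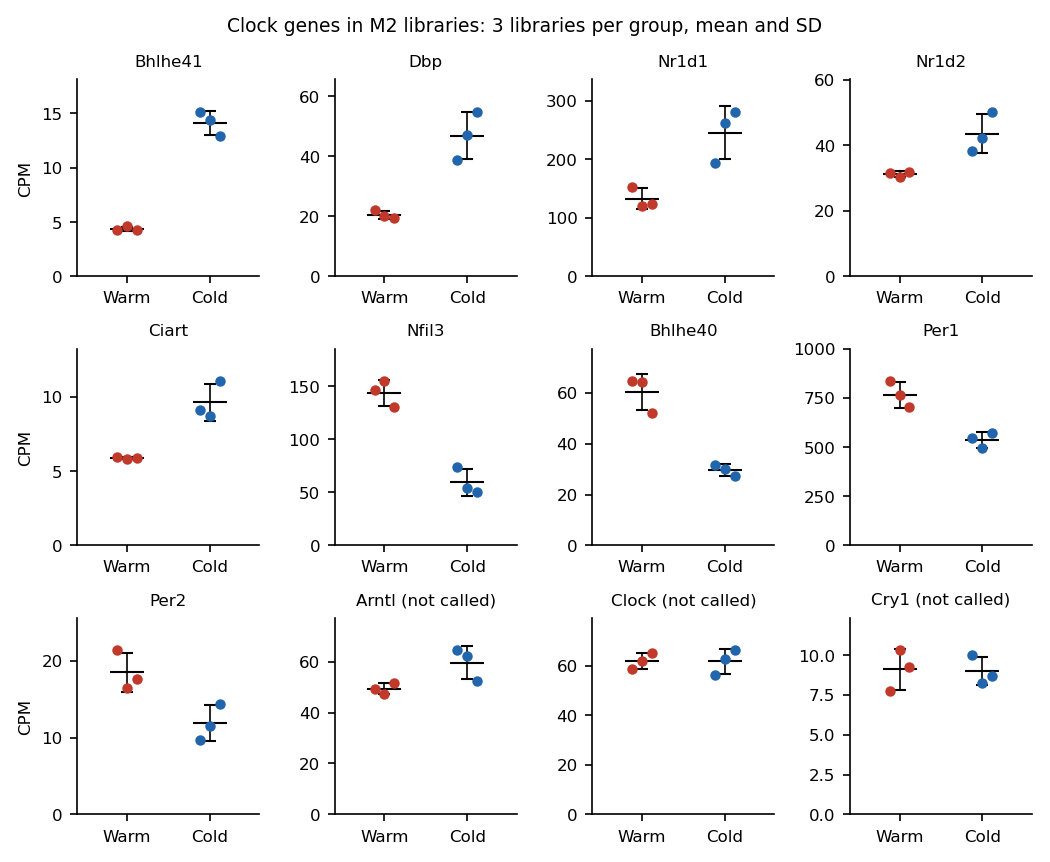
CPM of 12 clock genes in the 3 Warm M2 and 3 Cold M2 libraries; points are libraries, bars the mean and error bars the SD. Bhlhe41, Dbp, Nr1d1, Nr1d2 and Ciart lie higher in Cold, Nfil3, Bhlhe40, Per1 and Per2 lower, and Arntl, Clock and Cry1 were not called.

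The E box of clock promoters, CACGTG on either strand, was present in 5 of the 15 clock genes with a RefSeq promoter (33.3%). It was in 8.09% of all promoters of the same length and in 11.6% of those of the genes tested here. The lysosome list held it in 9 of 20 promoters (45%). Promoter windows of 3 called genes that hold it are shown because they include one gene that fell, Per1, and a pair that rose, with the E box in capitals.
Ciart, chr3:95882259-95882358, minus strand: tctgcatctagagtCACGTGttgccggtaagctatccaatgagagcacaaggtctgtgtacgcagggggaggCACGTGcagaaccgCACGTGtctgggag
Bhlhe41, chr6:145865541-145865610, minus strand: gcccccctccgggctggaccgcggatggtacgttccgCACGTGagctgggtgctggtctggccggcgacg
Per1, chr11:69098749-69098818, plus strand: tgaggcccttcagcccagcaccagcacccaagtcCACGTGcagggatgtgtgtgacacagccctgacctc
The Ciart window holds the hexamer 3 times. A D box, TTATGTAA, was found in 1 of the 15, Per3, against 1.11% of all promoters and 0.641% of those of tested genes.

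Receptors and targets of the cyclic AMP pathway fell in part. Adrenaline, noradrenaline and prostaglandin E2 raise cyclic AMP in macrophages, which switches on the orphan nuclear receptors of the Nr4a family within a short time. Of 14 tested genes of catecholamine and cyclic AMP signaling 7 fell, none rose and 7 did not pass (median -0.37), and the fit of M2 libraries alone called 8 lower and 1 higher. Nr4a2 was at 68.8, 77.3 and 77.5 CPM in Warm and at 42.9, 34 and 40 CPM in Cold (-1.0 ± 0.12, adjusted p = 0.000854). Nr4a1 fell from 2140 ± 121 to 1570 ± 172 CPM (-0.51 ± 0.09, adjusted p = 0.00776) and Nr4a3 from 65.7 ± 8.79 to 41.9 ± 6.83 CPM (-0.72 ± 0.15, adjusted p = 0.0149). The β1-adrenergic receptor Adrb1 fell from 4.6, 4.25 and 4.19 CPM to 2.14, 1.81 and 1.98 CPM (-1.20 ± 0.23, adjusted p = 0.00848). The prostaglandin E2 receptors Ptger2 (-1.02 ± 0.24) and Ptger4 (-0.46 ± 0.10) and the phosphodiesterase Pde4b (-0.57 ± 0.15) were the other called members. Nr4a2, Nr4a1 and Adrb1 kept their calls in every leave-one-out fit. The list count was 4 without Cold M2 1 and 3 without Cold M2 2 or Warm M2 2, and Nr4a3, Ptger2, Ptger4 and Pde4b, which each lost their call in 3 or more of these fits, Cold M2 2 and Warm M2 2 always among them, reached adjusted p values of 0.0625, 0.0927, 0.0852 and 0.131.

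Some genes known to be induced by glucocorticoids fell. Of 14 tested 5 fell, 1, Pdk4, rose and 8 did not pass (median -0.52), and the fit of M2 libraries alone called 9 lower. Tsc22d3 (GILZ), a classical glucocorticoid-induced repressor of inflammation, was at 276, 227 and 222 CPM in Warm and at 172, 150 and 173 CPM in Cold (-0.62 ± 0.11, adjusted p = 0.00715). Dusp1, a phosphatase that shuts off MAP kinases, fell from 4010 ± 59 to 2940 ± 140 CPM (-0.51 ± 0.07), and the zinc finger gene Zbtb16 from 15.4 ± 1.14 to 9.06 ± 0.919 CPM (-0.83 ± 0.15). The remaining members that fell were Per1 and the stress-responsive Ddit4 (-0.96 ± 0.22), whose call was lost without Cold M2 2, Cold M2 3, Warm M2 1 or Warm M2 2, with an adjusted p of up to 0.0798. The count of members called lower was 3 when genes owing over 10% of their counts to progenitor RNA were left out, as Zbtb16 owed up to 15.6% and Ddit4 up to 20.2%. Of 18 immediate early genes, which respond within minutes to stimulation or to tissue dissociation, 5 fell and 1, Ier3, rose, while Fos (-0.21 ± 0.08, adjusted p = 0.14), Egr1 (-0.18 ± 0.14, adjusted p = 0.49) and Jun (0.36 ± 0.16, adjusted p = 0.173) did not pass.

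Most chaperones and enzymes of the ER fell. The unfolded protein response raises such genes when the load of unfolded secretory proteins grows. Of 18 tested, 12 fell and none rose (median -0.48), and between 10 and 12 were called in each leave-one-out fit. Hyou1, a large chaperone of the ER, was at 266, 272 and 237 CPM in Warm and at 146, 139 and 158 CPM in Cold (-0.87 ± 0.10, adjusted p = 0.000815). Creld2, a secretable ER stress protein, fell from 91.9, 82.7 and 71.1 CPM to 37.6, 41.2 and 45.3 CPM (-1.05 ± 0.15, adjusted p = 0.00211), and the disulfide isomerase Pdia4 from 367 ± 30.4 to 248 ± 9.47 CPM (-0.63 ± 0.08). The Warm libraries exceeded the Cold libraries for all 3. Xbp1, the transcription factor activated by the ER sensor IRE1, fell from 285 ± 6.83 to 196 ± 12.1 CPM (-0.61 ± 0.06, adjusted p = 0.000534). Manf, an ER-retained trophic factor, fell too (-0.92 ± 0.11), though its exons overlap those of Rbm15b and Dcaf1. Hspa5 (BiP), the master chaperone, was at 3588, 3453 and 3701 CPM in Warm and at 2307, 2168 and 2904 CPM in Cold (-0.61 ± 0.15, adjusted p = 0.03), and lost its call without 5 of the 6 libraries, all but Cold M2 3, with an adjusted p of up to 0.101. Of 17 targets of ATF4, the transcription factor of the amino acid response, 3 fell and 1 rose, and Atf4 itself gave -0.08 ± 0.08 (adjusted p = 0.56).

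The ER stress response element is the sequence CCAAT, a spacer of 9 bases and CCACG, and its CCAAT letters are the same box read by NF-Y. Searched in that form on either strand, it was found in 7 of the 15 ER genes with a RefSeq promoter (46.7%) and in 0.137% of all 27025 promoters of the same length. It was present in 6 of the 10 members that fell and had a promoter, and the windows of those 6 are given with the fixed letters of the element in capitals.
Hspa5, chr2:34772000-34772069, plus strand: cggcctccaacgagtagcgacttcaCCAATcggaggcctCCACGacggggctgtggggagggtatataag
Hsp90b1, chr10:86705520-86705674, minus strand: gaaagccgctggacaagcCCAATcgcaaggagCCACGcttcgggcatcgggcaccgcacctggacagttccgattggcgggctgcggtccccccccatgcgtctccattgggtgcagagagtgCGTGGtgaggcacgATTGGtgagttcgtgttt
Pdia6, chr12:17266469-17266538, plus strand: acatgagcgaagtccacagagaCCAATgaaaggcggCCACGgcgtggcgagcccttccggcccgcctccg
Calr, chr8:84847047-84847116, minus strand: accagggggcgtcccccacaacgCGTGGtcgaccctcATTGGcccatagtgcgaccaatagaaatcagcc
Dnajc3, chr14:118937802-118937871, plus strand: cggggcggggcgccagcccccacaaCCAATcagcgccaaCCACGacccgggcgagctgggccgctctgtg
Creld2, chr15:88819496-88819565, plus strand: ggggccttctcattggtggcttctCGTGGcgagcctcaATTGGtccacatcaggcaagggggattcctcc
The Hsp90b1 window holds the element 2 times, once on each strand, and in the Calr and Creld2 windows it lies on the opposite strand. The log2 changes of these genes were -0.61 (Hspa5), -0.42 (Hsp90b1), -0.53 (Pdia6), -0.28 (Calr), -0.43 (Dnajc3) and -1.05 (Creld2). Canx, which also holds the element, did not pass.

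Of 18 tested eicosanoid genes, which encode enzymes and receptors of prostaglandins, leukotrienes and related lipids, 4 rose and 2 fell. Hpgds, the synthase of prostaglandin D2 in hematopoietic cells, was at 44.2, 51.8 and 55.3 CPM in Warm and at 111, 104 and 96.3 CPM in Cold (0.98 ± 0.12, adjusted p = 0.00124). Hpgd, which inactivates prostaglandins, rose from 93.8 ± 6.6 to 143 ± 5.78 CPM (0.54 ± 0.08, adjusted p = 0.00347), and Pla2g7, which degrades platelet-activating factor, from 266 ± 14.7 to 464 ± 36.9 CPM (0.74 ± 0.14). The groups did not overlap for these 3 genes. Ltc4s, the synthase of leukotriene C4, rose from 132 ± 26.5 to 264 ± 37.4 CPM (0.93 ± 0.18, adjusted p = 0.0104), with an adjusted p of 0.0595 without Cold M2 2. Mast cells also carry Hpgds and Ltc4s, and their markers were higher in the Cold libraries, as given above; the part of mast cells in these changes was not tested. Ltb4r1, the chemotactic receptor for leukotriene B4, fell from 15.3, 8.9 and 7.36 CPM to 2.09, 1.6 and 0.264 CPM (-2.98 ± 0.50, adjusted p = 0.00499). Ptgs2, the inducible cyclooxygenase, fell from 76.6 ± 14.3 to 48.7 ± 12 CPM (-0.71 ± 0.16, adjusted p = 0.0184) and lost its call without Warm M2 2, Cold M2 2 or Cold M2 3 (adjusted p of up to 0.0795).

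**Figure D4:**
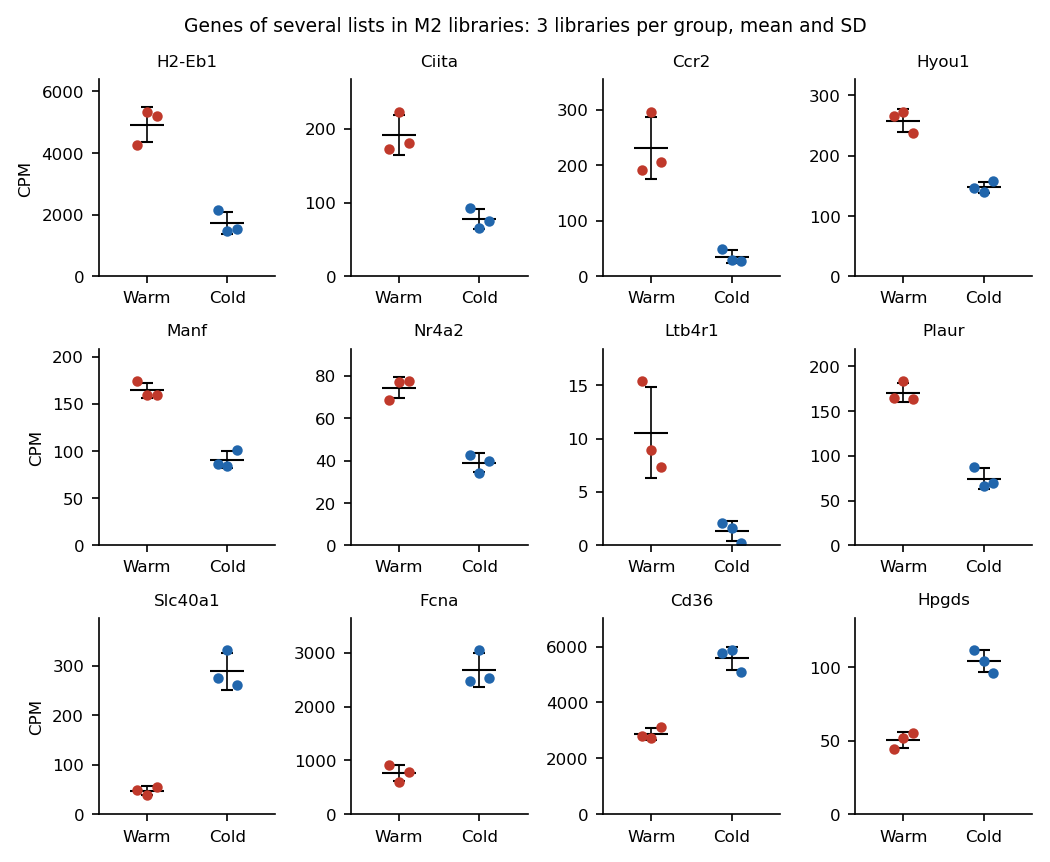
CPM of 12 genes from the groups described, in the 3 Warm M2 and 3 Cold M2 libraries; points are libraries, bars the mean and error bars the SD. H2-Eb1, Ciita, Ccr2, Hyou1, Manf, Nr4a2, Ltb4r1 and Plaur lie lower in every Cold library than in any Warm library, and Slc40a1, Fcna, Cd36 and Hpgds lie higher.

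Some antioxidant genes rose, with calls that depended on single libraries. Of 26 glutathione and thioredoxin genes 10 rose and 1, Sod2, fell (median 0.26), but the number called higher was 4 without Cold M2 1 or Cold M2 2, 2 without Warm M2 2 and 6 without Warm M2 3. Gclm, the regulatory subunit of the enzyme that starts glutathione synthesis, was at 18.5, 18.9 and 21.6 CPM in Warm and at 44.8, 40.1 and 29.8 CPM in Cold (0.90 ± 0.17, adjusted p = 0.00959). The peroxidase Prdx1 rose from 189 ± 10 to 303 ± 39.8 CPM (0.61 ± 0.12, adjusted p = 0.00952), with an adjusted p of 0.0503 without Warm M2 2. Cold M2 1 was the highest of the 3 Cold libraries for both. The catalytic partner Gclc (0.27 ± 0.10, adjusted p = 0.108), the thioredoxin reductase Txnrd1 (-0.05 ± 0.10) and the heme oxygenase Hmox1 (0.26 ± 0.13, adjusted p = 0.254) did not pass. The core of the antioxidant response element, TGAC, any 3 bases and GC on either strand, was found in 7 of 23 promoters of the list (30.4%). It was in 14.0% of all promoters and in 17.1% of those of tested genes. In the iron list of 22 genes, Slc40a1 and the ferritin heavy chain Fth1 rose and Hfe and Aco1 fell.

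Interferon-stimulated genes rose in a minority. Of 33 tested, 7 rose and none fell (median 0.20), 2 or 3 in every leave-one-out fit and 13 in the fit of M2 libraries alone, which also called 1 lower. Rsad2 (viperin), an antiviral enzyme, was at 15.5, 17.4 and 17.2 CPM in Warm and at 28.6, 28.2 and 27.4 CPM in Cold (0.68 ± 0.09, adjusted p = 0.00163). Ifit2, which binds viral RNA, rose from 10.9 ± 1.19 to 21.8 ± 0.717 CPM (0.94 ± 0.17, adjusted p = 0.00652), and the groups did not overlap for either. Bst2 (tetherin) gave 0.24 ± 0.06 with an adjusted p of 0.0288, and lost its call whichever library was left out (adjusted p of up to 0.139). Isg15 (-0.11 ± 0.09) did not pass. The core of the interferon-stimulated response element, GAAA, any 2 bases and GAAA on either strand, was found in 14 of 24 promoters of the list (58.3%) and in 3.99% of all promoters, and 3 called genes illustrate it, with its fixed letters in capitals.
Ifit3, chr19:34583349-34583428, plus strand: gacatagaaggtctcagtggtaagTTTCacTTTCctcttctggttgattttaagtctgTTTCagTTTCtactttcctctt
Rsad2, chr12:26456528-26456597, minus strand: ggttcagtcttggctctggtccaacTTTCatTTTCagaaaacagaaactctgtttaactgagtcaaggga
Bst2, chr8:71537553-71537622, minus strand: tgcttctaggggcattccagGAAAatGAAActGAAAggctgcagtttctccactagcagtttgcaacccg
In Ifit3 and Rsad2 the letters read TTTC because the element lies on the opposite strand, and in Bst2 a pair of overlapping matches shares its middle GAAA. Ifit3 has near-identical copies, so its counts (0.83 ± 0.17) may be split among them, and its call was lost without Cold M2 2 or Warm M2 3, with an adjusted p of up to 0.0643.

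Growth factor genes moved both ways. Of 19 tested, 3 rose and 3 fell, and the number called lower was 1 without Cold M2 2, Cold M2 3, Warm M2 2 or Warm M2 3. Gdf15, a stress hormone that lowers food intake, was at 347, 456 and 442 CPM in Warm and at 910, 834 and 852 CPM in Cold (0.99 ± 0.16, adjusted p = 0.00422). Vegfb, a vascular growth factor tied to fatty acid transport, rose from 22.1 ± 0.914 to 34 ± 1.10 CPM (0.55 ± 0.09, adjusted p = 0.00346). Both held in every leave-one-out fit and neither overlapped between groups. None of 33 cell cycle genes passed edgeR's test (median -0.14): 0 had an unadjusted p under 0.05, DESeq2 called 0, and 3 were lower in the fit of M2 libraries alone. None of 13 costimulatory and checkpoint genes passed either, although 6 had an unadjusted p under 0.05, DESeq2 called 4, and the fit of M2 libraries alone called 3 higher and 4 lower.

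The cold effect was also set beside that in M1 macrophages, 3 Cold and 3 Warm libraries sorted from the same tissue of mice treated alike. The difference of the effects was itself tested in the fit of 12 libraries, and 300 of 12981 genes (2.31%) passed, 144 with a higher (1.11%) and 156 with a lower (1.2%) effect in M2. Flt3 fell in M2 (-2.55) and gave 0.39 in M1, a difference of -2.94 (adjusted p = 0.0106), and Bhlhe40 gave -1.09 and 0.20, a difference of -1.29 (adjusted p = 0.00655). Both differences kept their call in all 12 fits that left out 1 library each. Itgax gave -1.46 in M2 and 0.18 in M1 (difference -1.64, adjusted p = 0.0284), and Mrc1 gave 0.06 and -0.81 (difference 0.87, adjusted p = 0.0384), calls kept in 6 and 5 of those 12 fits. Progenitor RNA was scaled at 1.99% to 8.9% in Warm M1 and at 17.2% to 46.9% in Cold M1, and its part in these differences was not tested. Inmt averaged 67.2 CPM in Cold M1 and 1340 CPM in Cold progenitor libraries, so the scaling is too high for that gene here as well. The number of differences called ran from 23 without Cold M2 2 to 1982 without Warm M1 2.

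**Figure D5:**
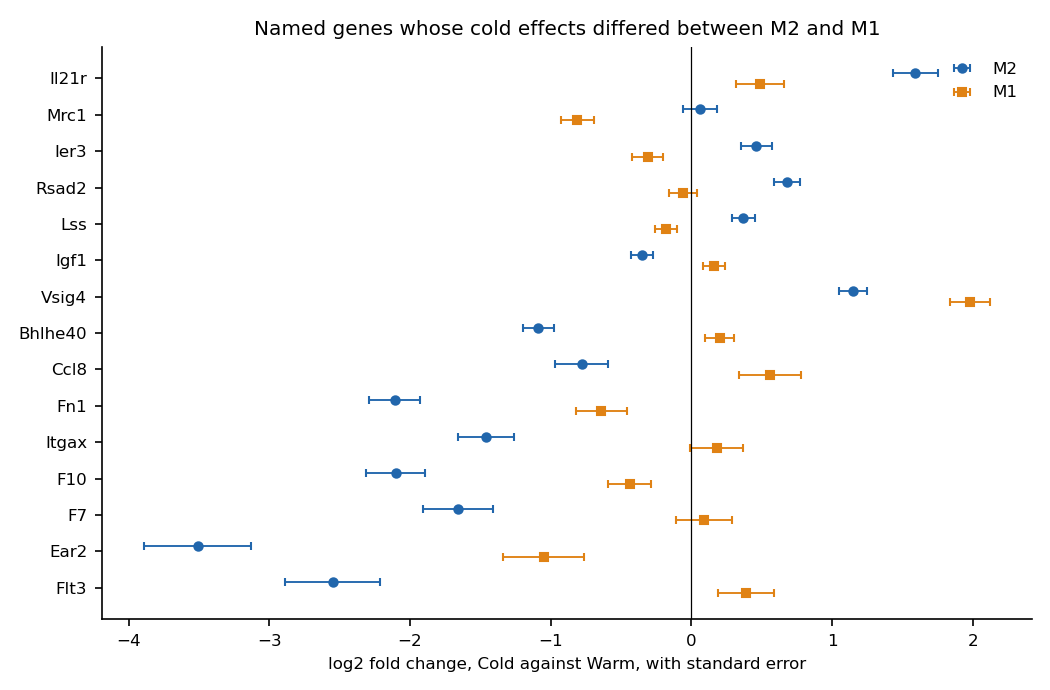
Log2 change, Cold over Warm, in M2 (blue circles) and M1 (orange squares) for 15 named genes whose effects differed between the populations; error bars are standard errors. Flt3, Itgax, F7 and Bhlhe40 lie below 0 in M2 and slightly above 0 in M1, and Mrc1 lies near 0 in M2 and below 0 in M1.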

How the data were processed

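RNA of sorted cells was extracted with a column kit and poly-A libraries were made with an unstranded TruSeq kit, per the labels' protocols. GSNAP, SAMtools, CASAVA 1.8 and the GRCm38 build are named in the submitters' processing notes; which program and annotation gave the counts is not stated in the labels. The authors deposited raw counts per gene. Of these, 21063 gene rows were used and 27 rows whose symbols had become dates were left out (0.148% to 0.192% of counts). Counts of the 12 Warm and Cold M1 and M2 libraries were fitted together with edgeR 4.0.16 (R 4.3.3; TMM, filterByExpr, quasi-likelihood test, Benjamini-Hochberg adjustment) so that they share one estimate of spread; the fit was tested on simulated data. Counting error limits low genes most. The p-values rest on a spread between pools that is estimated over all 12 libraries, M1 included, and not on the M2 pools alone. Members and lists were chosen with earlier results of these data known. Genes were named by rule: the 20 largest called changes each way, up to 5 called members per list, and identity genes. For the 20, a change of at least 2-fold and a mean of at least 5 CPM in a group were required. Their Warm and Cold M2 libraries also had to show no overlap of CPM, and predicted genes with clone names were left out. Other list members are named where a list turns on them. Of 174 named genes with coordinates, 18 have exons that overlap another gene. Promoters are RefSeq's, GRCm38.p6, and gene positions are GENCODE's on GRCm38. Alternatives were DESeq2 1.42.0, RLE scaling, no or a stricter filter, M2 libraries alone, a replicate block, progenitor-owing genes left out, and each library left out.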

Additional observations from a re-analysis of the deposited data

Results flagged for a closer look

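Among the named genes, 15 had a cold effect that differed between M2 and M1 macrophages by the test of the difference itself (edgeR's quasi-likelihood test, adjusted over all 12981 genes). Groups of 3 libraries are too small for a test of outlying samples. The effect was lower in M2 for 10 genes. The differences on the log2 scale were -2.94 for Flt3, -2.46 for Ear2, -1.74 for F7, -1.66 for F10, -1.64 for Itgax, -1.47 for Fn1, -1.34 for the chemokine Ccl8, -1.29 for Bhlhe40, -0.83 for Vsig4 and -0.52 for Igf1. Vsig4 rose in both populations, by 1.15 in M2 and 1.98 in M1, and Ear2, F10 and Fn1 were below 0 in both. The effect was higher in M2 for Il21r (1.1), Mrc1 (0.87), the immediate early gene Ier3 (0.77), Rsad2 (0.74) and the sterol enzyme Lss (0.55). Flt3 and Bhlhe40 kept their calls in all 12 fits that each left out 1 library, while Ccl8 kept its call in 2 and Igf1, Lss and Vsig4 in 3. Up to 45% of the M2 counts of Fn1, in Cold M2 3, and 44.1% of those of Bhlhe40, in Cold M2 2, could be owed to progenitor RNA. For both genes the shares were lower in the Warm M2 libraries. By the same scaling, progenitor RNA was more abundant in the Cold M1 libraries than in the Warm M1, Warm M2 or Cold M2 libraries. Its part in these differences was not tested.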

How the results depend on the processing

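The fit of the 6 M2 libraries alone called 2538 genes, 1231 higher and 1307 lower. Same-numbered Warm and Cold M2 libraries correlated at 0, 0.04 and 0.08 in their deviations from the group mean, and other pairs at -0.11 to 0.06. Deviations within groups of 3 libraries are tied to each other, so these values cannot decide whether the libraries are paired. Same-numbered M2 and M1 libraries correlated at 0.14, 0.26 and 0.18 in Warm and at -0.31, -0.03 and -0.08 in Cold, which bears on the difference of effects. With the replicate number as a block, 999 genes were called (430 and 569) in the fit of 12 libraries and 2188 (1032 and 1156) in that of the M2 libraries, and the difference between M2 and M1 effects fell to 73 genes (34 and 39). Leaving out 1 library gave 531 to 937 calls, 196 to 358 higher and 335 to 579 lower. For the difference of effects it gave 23 to 1982 calls, 17 to 595 higher and 5 to 1387 lower, the most without Warm M1 2. DESeq2 called 1482 differences (501 and 981), and without a filter 236 had a lower effect in M2; the cause was not tested. DESeq2, RLE scaling, no filter, a stricter filter and leaving out progenitor-owing genes gave 1753, 1409, 1076, 1514 and 1780 calls of cold in M2, within 1.5 times of 1312. No named gene reversed under any of these alternatives. Of 172 called named genes 102 kept their call whichever M2 library was left out, and 171 were called in the M2 libraries alone. Depth limits the low genes: Mucl1, Flt3 and Ltb4r1 fell to under 3 CPM in every Cold library.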

Other observations

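A few calls were made in lists not described above. Of 23 glycolysis and hypoxia genes 2 rose and 3 fell. Of 23 macrophage transcription factors 3 fell, Nr4a1, Irf5 and Runx3, and Mitf rose. Of 17 Toll-like receptor genes Myd88 and Cd14 fell, and the fit of M2 libraries alone called 5 lower and 2 higher. Of 15 heat shock and cold-inducible genes, the cold-inducible RNA-binding protein Cirbp and Hsp90aa1 rose, and each lost its call in 5 of the 6 fits that left out an M2 library. Among markers of cells other than macrophages, none of 16 progenitor markers passed edgeR's test in the fit of 12 libraries (median -0.63; 0 had an unadjusted p under 0.05 and DESeq2 called 0), while 7 were called in the fit of M2 libraries alone. None of 12 endothelial markers passed in the fit of 12 libraries (median 0.68; 2 had an unadjusted p under 0.05 and DESeq2 called 0), while 8 were higher in that of M2 libraries alone. Of 10 peritoneal macrophage markers Naip1 and Selp rose, but they kept their calls in 2 and 1 of the 6 fits that left out an M2 library. The 10 markers summed to 35.8 to 44.2 CPM in Warm M2 and 49.9 to 60.2 CPM in Cold M2. B cell markers summed to 6.65 to 8.91 and 6.24 to 8.84 CPM, and mesothelial markers to 2.23 to 3.32 and 2.99 to 7.51 CPM.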
